A study of Rattus norvegicus with 10 samples.

Results

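The comparison described here set rats that received remote ischemic preconditioning before a coronary ligation (RIPC+LAD) against rats that received the ligation alone (LAD), and asked which microRNAs of the dorsal vagal complex differ between them. The dorsal vagal complex is a hindbrain region that includes the vagal motor nucleus (DMV), whose parasympathetic fibers reach the heart. The groups were taken from the treatment in the sample labels, and held 5 of the 10 punches of the series, namely 2 RIPC+LAD animals (RIPC+LAD 1 and 2) and 3 LAD animals (LAD 1 to 3). The other 5 punches, from 2 animals with preconditioning alone (RIPC) and 3 age-matched controls (AMC), entered the fit and are shown only as a frame for the values. All animals were male Sprague-Dawley rats, and all were adult per the methods, but their age was not given beyond the age match of the controls.

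Both compared groups had the left anterior descending coronary artery tied through an opened left chest under ketamine and xylazine, and their brainstems were collected 24 h later. In the RIPC+LAD group the femoral vessels of both hind limbs had been occluded and released 2 h before the ligation. None of the 10 samples carries a label of a sham operation, so the occlusion cannot be told apart from the anesthesia and leg surgery that go with it. The animal numbers of both RIPC+LAD rats share a prefix that no LAD rat has. LAD 2 and LAD 3 share another prefix, and what the prefixes mark is not stated, so prefix and treatment cannot be told apart. Each animal gave 1 punch from 200 um sections, and in a bulk punch fewer cells of a type and less RNA per cell cannot be told apart.

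MicroRNAs are short RNAs cut from hairpin precursors, and each guides an Argonaute protein to messenger RNAs that pair with its seed, bases 2 to 8 from the 5′ end. MicroRNAs with the same seed share many targets, and neighboring hairpins are often cut from 1 transcript. In the brain, some microRNAs are largely confined to neurons, others to oligodendrocytes, choroid plexus epithelium, ciliated cells or blood, so that a punch carries the signature of each cell type it holds.

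The mature sequences of the microRNAs on which the comparison turned are given here from RefSeq (assembly GRCr8), with the seed in capitals. The first set holds microRNAs with higher values in RIPC+LAD, among them miR-218a and miR-495, which the study singled out. The probes miR-218a and miR-129 are named without an arm, and the only arm that RefSeq lists under those names is shown.
miR-218a-5p: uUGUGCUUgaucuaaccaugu
miR-495: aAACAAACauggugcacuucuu
miR-129-5p: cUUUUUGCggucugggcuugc
miR-125a-5p: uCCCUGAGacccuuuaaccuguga
miR-125a-3p: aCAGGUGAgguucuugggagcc
miR-342-5p: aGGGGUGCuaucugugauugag
The 2 arms of the miR-125a hairpin have different seeds and both had higher values in RIPC+LAD. MiR-218a-5p is encoded at chr10:20572547-20572567 on the plus strand and again at chr14:66922413-66922433 on the minus strand, and miR-495 lies at chr6:134554103-134554124 on the plus strand, in the imprinted Dlk1-Dio3 region.

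The second set holds microRNAs with lower values in RIPC+LAD. It includes a family pair with 1 seed, in which miR-30c and miR-30a had opposite signs. The probe names miR-30c, miR-30a and miR-455 give no arm. For miR-30c and miR-455 the only listed arm is shown, and for miR-30a the arm that carries the family seed.
miR-30c-5p: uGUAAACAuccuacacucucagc
miR-30a-5p: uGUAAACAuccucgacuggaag
miR-455-3p: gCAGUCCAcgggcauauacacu
miR-449c-3p: uAGAACUUcgucccaac

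The third set pairs 4 of the lower probes with the microRNA that RefSeq places on the opposite strand of the same locus, to which each is reverse complementary over 20 or 21 bases.
miR-3590-5p: uGCCCUUUuaacauugcacug
miR-130a-3p: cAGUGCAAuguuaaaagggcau
miR-3592: aAGUGUUGuccgugaaugauu
miR-382-3p: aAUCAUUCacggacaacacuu
miR-3596c: aCUAUACAaccuccuaccuca
let-7e-5p: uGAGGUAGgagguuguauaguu
miR-3589: gAGGAAACcagcaaguguugac
miR-505-3p: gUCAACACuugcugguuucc
For example, miR-3590-5p lies at chr3:90229241-90229261 on the plus strand and miR-130a-3p at chr3:90229240-90229261 on the minus strand. Of the 420 microRNA probes, 162 matched a RefSeq mature microRNA by full name and 33 matched a hairpin with 1 listed arm. Another 169 matched a hairpin with 2 listed arms, so that the name does not say which arm was counted.

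The total microRNA count was 80696 and 93246 in the RIPC+LAD punches, against 102329, 42893 and 28485 in LAD 1, LAD 2 and LAD 3, and 28485 to 102824 over the series. Of 420 probes, 253 were above the negative control threshold of their sample in at least 2 of 10 samples and were tested. The synthetic spike-in POS_A was counted 6725 and 7264 times in RIPC+LAD and 13236, 8543 and 7049 times in LAD. The mean of the negative controls amounted to 38.3 and 30.2 counts per 1000000 microRNA counts (CPM) in RIPC+LAD, against 28.8, 51.4 and 77.6 CPM in LAD, so scarce microRNAs sat closest to background in LAD 3. As a check of the tissue label, miR-124, the most abundant microRNA of neurons, held 67731 to 82985 CPM in RIPC+LAD and 48055 to 92990 CPM in LAD. The Hox cluster microRNAs, which mark the hindbrain and cord, summed to 3710 to 4708 CPM in RIPC+LAD and 2838 to 5452 CPM in LAD. The liver microRNA miR-122 was counted at most 6 times in a sample of these groups.

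No single microRNA passed the test after adjustment. With edgeR's quasi-likelihood test over all 10 samples, 0 of 253 microRNAs (0.0%) had an adjusted p under 0.05, and the smallest adjusted p was 0.102, for miR-489. At an unadjusted p under 0.05 there were 44 microRNAs (17.4% of those tested), 19 with higher values in RIPC+LAD (7.51%) and 25 with lower values (9.88%). Without RIPC+LAD 2 the number was 18, of which 4 were higher. The words higher and lower therefore describe values from here on, and none of the differences is a call. The log2 fold changes of RIPC+LAD over LAD ran between -2.74 and 1.62, with a median over the 253 of 0.02, and 130 were above 0 (51.4%).

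Both RIPC+LAD punches lay above all LAD punches for 47 microRNAs (18.6%) and below all of them for 49 (19.4%). Of the 44 with an unadjusted p under 0.05, 41 had no overlap between the groups. The RIPC+LAD punches resembled each other more than the LAD punches did. Over the 145 microRNAs above threshold in all 5 samples, the median absolute difference in log2 CPM was 0.25 between RIPC+LAD 1 and 2, against 0.40 to 0.43 between LAD punches, and 0.39 to 0.59 between a RIPC+LAD and a LAD punch. RIPC+LAD 1 and LAD 3 were the closest pair across the groups. Each pair of LAD punches held LAD 2 or LAD 3, the punches with the fewest counts, and the part of depth in these distances was not tested. The RIPC+LAD animals also share a number prefix, which cannot be told apart from treatment.

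The direction of a difference went with abundance. The 19 higher microRNAs had a median level of 11.23 log2 CPM, and 14 of them reached 1000 CPM, while the 25 lower ones had a median of 7.95 log2 CPM. Over 4 bins of abundance the median log2 fold change was -0.31 in the 64 scarcest microRNAs, -0.29 in the next 63, 0.10 in the next 63 and 0.26 in the 63 most abundant. In the scarcest bin, 14 microRNAs were above threshold in no RIPC+LAD sample and 15 in no LAD sample. The 2 LAD punches with the fewest counts had the highest background in CPM, and the part of this in the pattern was not tested.

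**Figure D1:**
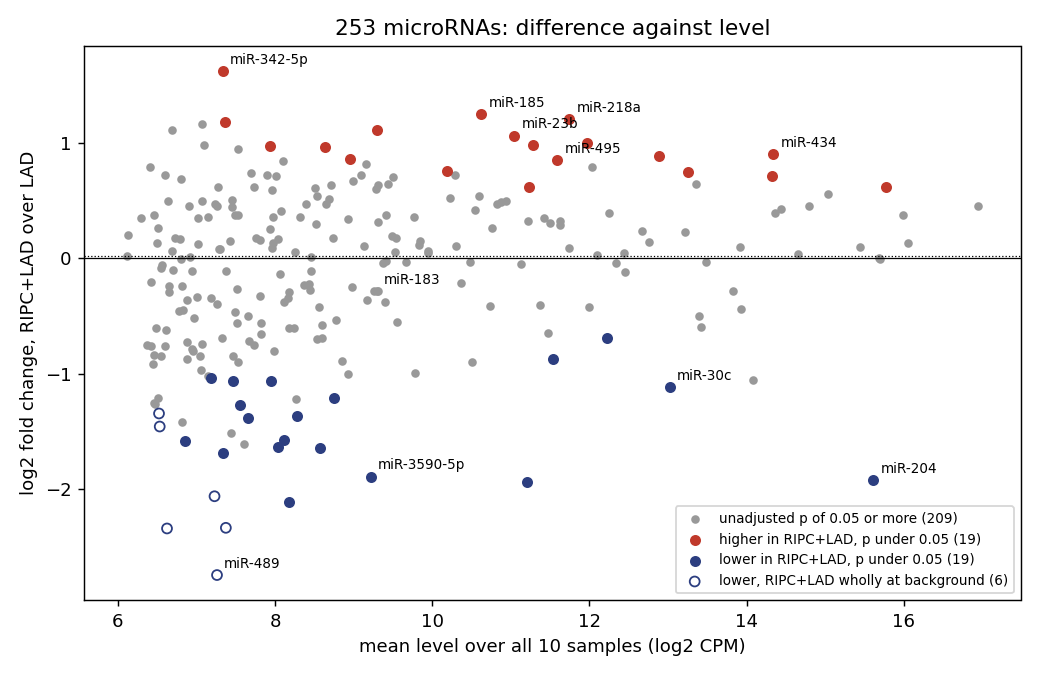
Each point is 1 of the 253 microRNAs, with its mean level over all 10 samples in log2 CPM across and its log2 fold change of RIPC+LAD over LAD upward. Red points (19) and blue points (19 filled, 6 open) have an unadjusted p under 0.05, open ones have no RIPC+LAD sample above the negative control threshold, and the red points lie further right than the blue ones.

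Among the higher microRNAs, miR-185 had the smallest p. It held 2494 and 2719 CPM in RIPC+LAD, against 951, 1278 and 1070 CPM in LAD, a log2 fold change of 1.25 ± 0.35 (SE). Its gene belongs to the chromosome region that is lost in human DiGeorge syndrome. MiR-23b, cut from 1 transcript with miR-27b, held 3441 and 3526 CPM against 1301, 1776 and 1967 CPM in LAD, at 1.06 ± 0.31. MiR-191, widely expressed and often used as a reference microRNA, was at 3841 and 3883 CPM in RIPC+LAD and 1811, 1798 and 2277 CPM in LAD, at 0.98 ± 0.32. For these 3 microRNAs the RIPC+LAD pair was tight and lay wholly above LAD. Both punches also lay above all 8 other punches of the series.

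MiR-218a and miR-129 are neuronal microRNAs, and miR-218a is especially abundant in motor neurons. MiR-218a held 2948 and 5738 CPM in RIPC+LAD, against 2061, 1928 and 1622 CPM in LAD, at 1.21 ± 0.35. The RIPC+LAD punches differed from each other by more than the LAD punches did, and without RIPC+LAD 2 the log2 fold change was 0.59. MiR-129 held 867 and 1187 CPM in RIPC+LAD, against 370, 628 and 449 CPM in LAD, at 1.11 ± 0.36, and both punches lay above all others of the series. For miR-218a it was instead the LAD punches that lay apart, since all 3 were below the other 7 punches, which included 2588 to 5255 CPM in AMC. Such a position of LAD was seen for 3 microRNAs of 253 (1.19%).

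Abundant microRNAs were also among the higher ones. MiR-434, a rodent microRNA transcribed opposite the imprinted gene Rtl1, held 24021 and 34004 CPM in RIPC+LAD and 16212, 17545 and 12802 CPM in LAD, at 0.90 ± 0.30, or 0.57 without RIPC+LAD 2. MiR-100 held 11817 and 11431 CPM in RIPC+LAD and 6395, 5545 and 6867 CPM in LAD, at 0.89 ± 0.30. MiR-125a-5p, a relative of the nematode developmental microRNA lin-4, held 69941 and 76638 CPM in RIPC+LAD and 42000, 48238 and 52623 CPM in LAD, at 0.62 ± 0.29. None of these groups overlapped. The other arm, miR-125a-3p, was at 654 and 668 CPM in RIPC+LAD and 330, 368 and 414 CPM in LAD, at 0.86 ± 0.32.

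The remaining microRNAs of the 12 with the smallest p were less abundant or varied more. MiR-361 held 520 and 542 CPM in RIPC+LAD and 300, 282 and 207 CPM in LAD, at 0.96 ± 0.36. MiR-342-5p, from an intron of Evl, had the largest fitted difference, 1.62 ± 0.62, but its groups overlapped, with 133 and 334 CPM in RIPC+LAD and 30.02, 65.0 and 207 CPM in LAD, and 1 of 3 LAD samples was above threshold. Without LAD 1 it was at 0.88, and without RIPC+LAD 2 at 0.74. MiR-758 held 160 and 207 CPM in RIPC+LAD and 70.1, 130 and 34.5 CPM in LAD, at 1.18 ± 0.49, with 1 of 3 LAD samples above threshold. MiR-495, at 2854 and 4390 CPM in RIPC+LAD, against 1661, 1646 and 2795 CPM in LAD, was at 0.85 ± 0.35, or 0.46 without RIPC+LAD 2. The lower RIPC+LAD punch and LAD 3 were nearly level in it. Adjusted p-values of edgeR's quasi-likelihood test for these 12 were between 0.114 and 0.240.

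**Figure D2:**
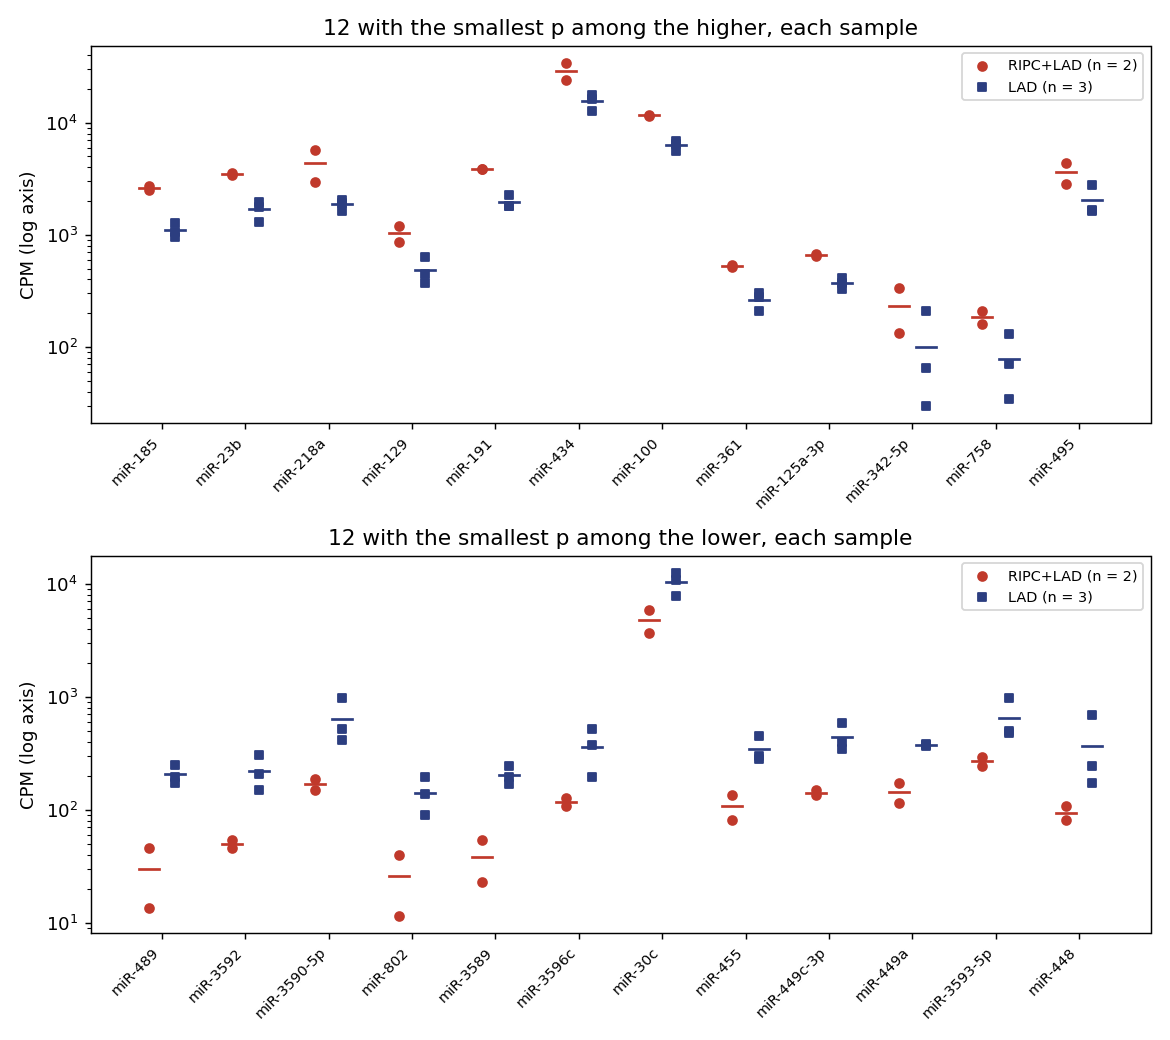
CPM of each punch on a log axis for the 12 higher (top) and the 12 lower (bottom) microRNAs with the smallest p, with RIPC+LAD (red circles, n = 2) left of LAD (blue squares, n = 3) and a line at each mean. MiR-342-5p is the only 1 of these 24 whose groups overlap.

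The lower microRNAs were led by scarce ones. MiR-489, from an intron of the calcitonin receptor gene, was counted 1 and 4 times in RIPC+LAD, or 13.3 and 46.1 CPM, against 250, 195 and 173 CPM in LAD, at -2.74 ± 0.61. No RIPC+LAD sample was above threshold for miR-489, miR-802, miR-3589 or miR-3592, so only a bound on their level there was measured. MiR-802, best known from liver and pancreas, was at 40.01 and 11.5 CPM in RIPC+LAD and 90.1, 195 and 138 CPM in LAD. MiR-3592 was at 53.3 and 46.1 CPM in RIPC+LAD and 150, 303 and 207 CPM in LAD, and miR-3589 at 53.3 and 23.0 CPM against 170, 195 and 242 CPM in LAD. The fitted values were -2.34 ± 0.71 for miR-802, -2.06 ± 0.53 for miR-3592 and -2.33 ± 0.71 for miR-3589.

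Other lower microRNAs were measured above threshold in both groups. MiR-30c was the most abundant of the 12, at 5868 and 3664 CPM in RIPC+LAD and 12409, 7820 and 10766 CPM in LAD, a log2 fold change of -1.12 ± 0.35. The groups did not overlap, and both RIPC+LAD punches were below all 8 others of the series. MiR-455, from an intron of a cartilage collagen gene, was at 133 and 80.7 CPM in RIPC+LAD and 300, 282 and 449 CPM in LAD, at -1.63 ± 0.51. MiR-3593-5p was at 293 and 242 CPM in RIPC+LAD and 480, 498 and 966 CPM in LAD, at -1.21 ± 0.39. In miR-3593-5p and in miR-27a, all 3 LAD punches lay above the other 7 of the series, as in no other microRNA (0.791% of 253). MiR-27a held 4041 and 3215 CPM in RIPC+LAD and 5344, 5913 and 6315 CPM in LAD, at -0.69 ± 0.29.

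MiR-130a, which endothelial and blood progenitor cells express, was at 2041 and 1625 CPM in RIPC+LAD and 3913, 2686 and 3416 CPM in LAD, at -0.87 ± 0.31. It was lower in both RIPC+LAD punches than in any other punch of the series. In all, both RIPC+LAD punches lay above the 8 others for 23 microRNAs (9.09%) and below them for 18 (7.11%), and among the 44 with an unadjusted p under 0.05 these positions were held by 11 and 12. Since RIPC+LAD and LAD alone are compared here, these positions are given as a description.

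The study singled out miR-218a, miR-495 and miR-183, which it picked on these samples by a shift in LAD against controls that was absent in RIPC+LAD, by the size of the shift and by abundance. The RIPC+LAD values were thus part of the choice, and the test of these 3 is not independent evidence. MiR-183, cut with miR-96 and miR-182 from 1 transcript of sensory neurons and other sensory cells, was at 734 and 519 CPM in RIPC+LAD and 851, 715 and 690 CPM in LAD. Its groups overlapped, and its log2 fold change was -0.28 ± 0.35. In an exact two-sided permutation test of the difference in mean log2 CPM, the p was 0.2 for miR-218a, 0.2 for miR-495 and 0.6 for miR-183, taken as double the smaller tail, where 0.2 is the smallest p that 2 samples against 3 can give. MiR-96 and miR-182 also had log2 fold changes below 0.

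**Figure D3:**
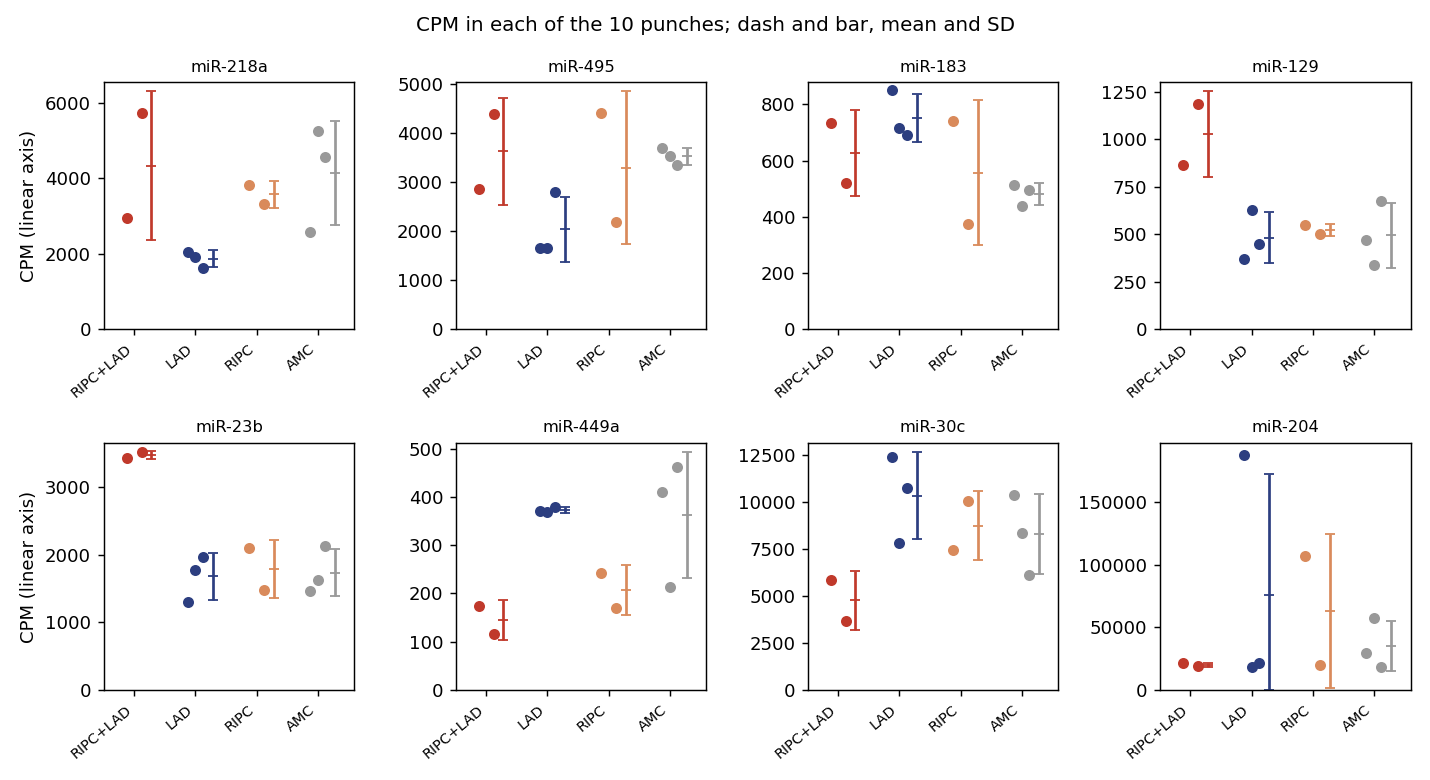
CPM on a linear axis in every punch of RIPC+LAD (red, n = 2), LAD (blue, n = 3), RIPC (orange, n = 2) and AMC (gray, n = 3) for 8 microRNAs, with the mean and SD beside the points (the lower bar of miR-204 in LAD is cut at 0). RIPC+LAD stands above all other groups in miR-129 and miR-23b and below them in miR-30c, and LAD stands below them in miR-218a. In miR-204, LAD 1 is the highest punch (187495 CPM), followed by RIPC 1 (106660 CPM) and AMC 2 (57049 CPM).

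Neuron-enriched microRNAs had mostly higher values in RIPC+LAD. Of 15 on the list 14 were tested, and 11 had a log2 fold change above 0, where 51.4% of all microRNAs did. The median was 0.48, against 0.02 over all 253, and 5 of the 14 had both RIPC+LAD punches above LAD, as 18.6% of all tested did. The summed level of the list was 193792 and 183880 CPM in RIPC+LAD and 158184, 172853 and 170049 CPM in LAD, so the sums did not overlap. The sums of many other lists did not overlap either, among them the immune list, which was lower in RIPC+LAD. Besides miR-218a and miR-129, miR-137 was at 533 and 772 CPM in RIPC+LAD and 450, 390 and 311 CPM in LAD, at 0.73 ± 0.36, and miR-138, which acts at dendritic spines, was at 1547 and 1452 CPM against 821, 1235 and 1104 CPM in LAD. MiR-124 and miR-9, the most abundant of the list, overlapped between the groups. Without RIPC+LAD 2 the median was 0.27 with 9 of 14 above 0, and without LAD 1 it was 0.29 with 11 above 0. Of the 63 most abundant microRNAs overall in the test, 43 were above 0, with a median of 0.26, and the part of abundance in the list was not tested. The list summed to 149900 to 210250 CPM in AMC, a range that held both RIPC+LAD sums.

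The Dlk1-Dio3 region, whose microRNAs are expressed from the maternal chromosome, holds a group of hairpins opposite Rtl1 and the larger miR-379/410 group, both prominent in neurons. In the miR-379/410 group, 29 of 36 probes were tested, 23 had a log2 fold change above 0 (51.4% of all tested did), and 7 had both RIPC+LAD punches above LAD, a share near the 18.6% of all tested. The median was 0.35, and the summed level was 40679 and 48638 CPM in RIPC+LAD, against 36506, 34462 and 39993 CPM in LAD. MiR-487b was at 1107 and 1509 CPM in RIPC+LAD and 1041, 715 and 483 CPM in LAD, at 0.76 ± 0.34. MiR-539 was at 4321 and 6787 CPM in RIPC+LAD and 2232, 2664 and 4831 CPM in LAD, at 0.79 ± 0.37, and overlapped. The group rests largely on RIPC+LAD 2, since without that punch 15 of 29 were above 0 and the median was 0.01.

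Hairpins of this region did not all run together. MiR-411, beside miR-379 in the same group, was at 2307 and 1855 CPM in RIPC+LAD and 3513, 2643 and 3623 CPM in LAD, at -0.65 ± 0.30, while miR-379 was at 267 and 323 CPM against 210, 108 and 207 CPM in LAD, at 0.73 ± 0.38. Opposite Rtl1, 4 of 5 tested microRNAs were above 0, with a median of 0.33. MiR-127 was at 4988 and 7156 CPM in RIPC+LAD and 1401, 4397 and 3416 CPM in LAD, at 1.00 ± 0.44. Its neighbor miR-136 was at 1027 and 830 CPM in RIPC+LAD and 1201, 2448 and 1553 CPM in LAD, at -0.89 ± 0.48. Without LAD 1, miR-127 was at 0.59. Without RIPC+LAD 2, 2 of these 5 were above 0, with a median of -0.09.

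The lists of ciliated, choroid plexus, oligodendrocyte and red blood cells were below 0 in all tested members, but single LAD punches carried much of this. All 4 tested microRNAs of ciliated cells were below 0, with a median of -1.44 and sums of 867 and 991 CPM in RIPC+LAD, against 3483, 1495 and 1208 CPM in LAD. Without LAD 1 the median was -0.59 and 2 of the 4 were above 0. MiR-449a, which acts in multiciliated cells, was at 173 and 115 CPM in RIPC+LAD and 370, 368 and 380 CPM in LAD, at -1.37 ± 0.43. MiR-449c-3p, from the same intron, was at 133 and 150 CPM in RIPC+LAD and 400, 585 and 345 CPM in LAD, at -1.64 ± 0.51. Without LAD 1 they were at -1.41 and -1.79. MiR-34b and miR-34c behaved otherwise. MiR-34b was at 66.7 and 92.2 CPM in RIPC+LAD and 440, 86.6 and 34.5 CPM in LAD. MiR-34c was at 493 and 634 CPM in RIPC+LAD and 2272, 455 and 449 CPM in LAD, so LAD 1 alone was high in both. Their log2 fold changes were -1.51 ± 0.73 and -0.99 ± 0.68, or 0.23 and 0.28 without LAD 1.

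The choroid plexus microRNAs miR-204 and miR-448 were the other case of 1 high punch. MiR-204 held 21193 and 18863 CPM in RIPC+LAD and 187495, 18087 and 21394 CPM in LAD, so the groups overlapped outside LAD 1. The log2 fold change was -1.92 ± 0.88, or -0.01 without LAD 1. MiR-448, from an intron of the serotonin receptor gene Htr2c, was at 106.7 and 80.7 CPM in RIPC+LAD and 690, 173 and 242 CPM in LAD, at -2.11 ± 0.69, or -1.15 without LAD 1. Of the choroid list, miR-211 was not tested.

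Oligodendrocyte microRNAs were below 0 in 3 of 3 tested, with a median of -1.05. MiR-338 was at 14071 and 7259 CPM in RIPC+LAD and 15651, 35437 and 15114 CPM in LAD, at -1.05 ± 0.50. MiR-219-5p was at 1067 and 726 CPM in RIPC+LAD and 1671, 7668 and 932 CPM in LAD, at -1.94 ± 0.87, and overlapped. Here LAD 2 was the high punch, and without it miR-338 was at -0.53 and miR-219-5p at -0.58. The erythrocyte list summed to 147 and 127 CPM in RIPC+LAD and 170, 455 and 173 CPM in LAD, and miR-451, its defining member, was at 106.7 and 104 CPM against 140, 325 and 138 CPM in LAD, at -0.90 ± 0.48. LAD 2 was again the high punch, and the list median of -0.90 was -0.20 without it. The part of these cell types in the differences of the neuronal lists was not tested.

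Immune and vascular microRNAs showed no shared direction. Of 6 immune microRNAs tested 4 were below 0, with a median of -0.19 and sums of 16538 and 12744 CPM in RIPC+LAD and 20215, 18715 and 18082 CPM in LAD. MiR-150, a lymphocyte microRNA, made up most of that sum, with 14644 and 11039 CPM in RIPC+LAD and 18513, 16960 and 16563 CPM in LAD, at -0.43 ± 0.29. The neutrophil microRNA miR-223 was counted at most 4 times. Of 3 vascular microRNAs 2 were above 0, and miR-143 of smooth muscle was at 120 and 57.6 CPM in RIPC+LAD and 200, 152 and 173 CPM in LAD, at -1.02 ± 0.55. The hypoxia microRNA miR-210 was at 467 and 369 CPM in RIPC+LAD, within the LAD values of 140, 736 and 449 CPM.

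**Figure D4:**
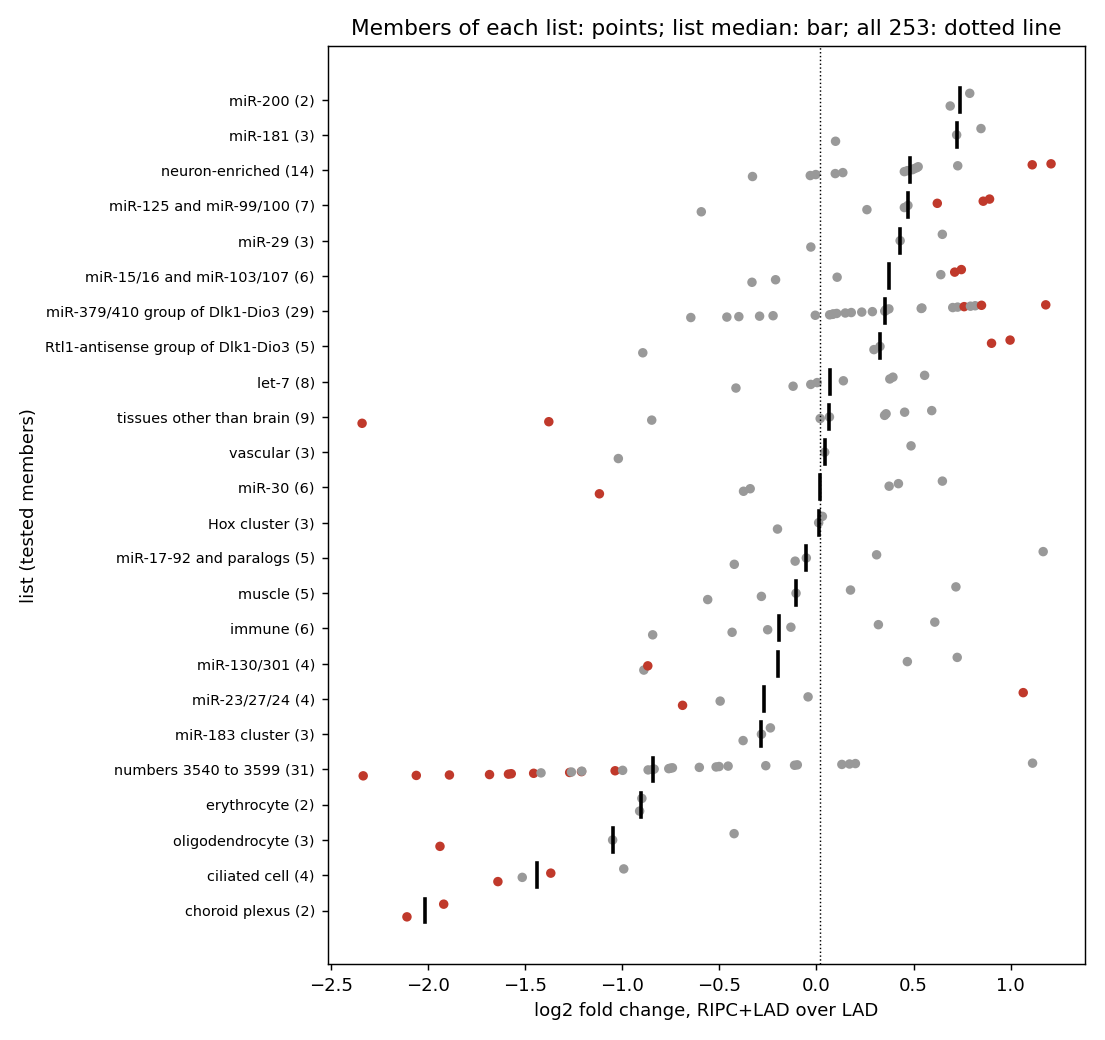
Log2 fold changes of RIPC+LAD over LAD for the tested members of each list with at least 2 of them (number in brackets), with the list median as a bar, the median of all 253 microRNAs as a dotted line, and members with an unadjusted p under 0.05 in red. Medians run between -2.01 for choroid plexus and 0.74 for miR-200, each a list of 2 tested members. Without LAD 1 the choroid plexus median was -0.58, and 1 of the miR-200 members was above threshold in no LAD sample.

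Families that share a seed split in several cases. In the miR-30 list 3 of 6 were above 0, among them miR-30b-3p (0.37), the opposite arm to miR-30b-5p and not part of the seed family. MiR-30a, with the seed of miR-30c, was at 1040 and 956 CPM in RIPC+LAD and 690, 671 and 518 CPM in LAD, at 0.65 ± 0.37, so neither microRNA overlapped between groups and their signs were opposite. In the family of miR-99 and miR-100, miR-99a was at 8909 and 7040 CPM in RIPC+LAD and 12649, 9336 and 14113 CPM in LAD, at -0.59 ± 0.29, against the 0.89 of miR-100. Over the 7 tested probes of the miR-125 and miR-99/100 list, with miR-125a-3p and miR-125b-3p counted, 6 were above 0. The summed level of the 7 was 230176 and 263169 CPM in RIPC+LAD and 173826, 187907 and 173361 CPM in LAD. MiR-125b-5p, the most abundant microRNA in both RIPC+LAD punches, was at 135014 and 162690 CPM in RIPC+LAD and 109149, 121300 and 95825 CPM in LAD, at 0.45 ± 0.28.

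The miR-15 and miR-103 families, whose seeds overlap, had 4 of 6 above 0. MiR-16 was at 14204 and 13009 CPM in RIPC+LAD and 9787, 7733 and 6763 CPM in LAD, at 0.75 ± 0.31. MiR-107, from an intron of a pantothenate kinase gene, was at 26208 and 27171 CPM in RIPC+LAD and 19104, 15552 and 14182 CPM in LAD, at 0.71 ± 0.30. Both microRNAs lay above all 8 other punches in RIPC+LAD. MiR-103, with the seed of miR-107, was at 667 and 956 CPM in RIPC+LAD and 670, 455 and 380 CPM in LAD, at 0.64 ± 0.35. All 3 tested miR-181 microRNAs were above 0, with a median of 0.72 that was 0.02 without LAD 1 and -0.06 without RIPC+LAD 1. The let-7 family, with 5 of 8 above 0 and a median of 0.07, summed to 219799 and 207813 CPM in RIPC+LAD, within the LAD values of 144725, 141380 and 241719 CPM. Its median was -0.04 with 3 of 8 above 0 without LAD 2, and 0.68 with 7 of 8 above 0 with the ligation control, a synthetic RNA, as a covariate.

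MicroRNAs cut from 1 transcript, or from 1 hairpin, could also differ in sign. MiR-23b and miR-27b lie side by side on the minus strand of chromosome 17, and miR-27b was at 9870 and 6971 CPM in RIPC+LAD and 14510, 10874 and 10179 CPM in LAD, at -0.50 ± 0.30, against the 1.06 of miR-23b. In neither did the groups overlap. MiR-125a-5p and miR-125a-3p, from 1 hairpin, were both above 0. Over the 20 hairpins with both arms tested, 12 had arms of the same sign.

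The largest run of lower values was in rat microRNAs numbered miR-3541 to miR-3597, a list made after the values were seen. Of 65 such probes 31 were tested, and 27 of those had a log2 fold change below 0, where 48.6% of all microRNAs did. The median was -0.84, and 14 had both RIPC+LAD punches below LAD, as 19.4% of all tested did. The sums were 2601 and 3019 CPM in RIPC+LAD and 4233, 6325 and 7108 CPM in LAD. Of the 31, 12 are reverse complementary to another mature microRNA over at least 15 bases, as in the pairs printed above, and 10 of these were below 0, with a median of -1.34. Of the other 19, 17 were below 0, with a median of -0.75, so lower values were not particular to the complementary probes.

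Within that set, miR-3590-5p was at 187 and 150 CPM in RIPC+LAD and 410, 975 and 518 CPM in LAD, at -1.89 ± 0.53. It is complementary to miR-130a-3p, and the miR-130a probe was also lower. MiR-3596c, complementary to let-7e-5p, was at 106.7 and 127 CPM in RIPC+LAD and 370, 195 and 518 CPM in LAD, at -1.57 ± 0.48. The let-7e probe went the other way, with 24234 and 23852 CPM in RIPC+LAD and 17853, 14816 and 22257 CPM in LAD. MiR-3592, complementary to miR-382-3p, was lower, while the miR-382 probe was at 9790 and 9598 CPM in RIPC+LAD and 9477, 7061 and 8178 CPM in LAD. Over the 9 pairs with both probes tested, the complementary probes had a median of -1.42 and their partners 0.07. The miR-130a probe counts there as the partner of both miR-3590-3p and miR-3590-5p. Of the partners only miR-369-5p is named by arm. For the others the name does not say whether the complementary arm is counted, and the deposited probe identifiers were not used to settle it.

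These probes were scarce, with the negative controls at 30.2 to 38.3 CPM in RIPC+LAD and 28.8 to 77.6 CPM in LAD. Of the 12 complementary probes, 4 were above threshold in no RIPC+LAD sample and 1 in no LAD sample, against 16 and 15 of all 253. For such probes no fold was measured. After the negative control mean was subtracted, the fitted median of the 12 was -1.88, where that of all 253 was -0.04. Adjusted for the ligation control, the median was -0.24. That control, a synthetic RNA joined by the same reaction as the microRNAs, was at 111 and 172% of POS_A in RIPC+LAD and 35.9, 54.4 and 24.3% in LAD, so the groups did not overlap in it. It moved with the whole comparison. With it as a covariate 15 microRNAs had an unadjusted p under 0.05, of which 1 was higher and 14 lower, 3 of the 15 were among the 44, and 41 of the 44 kept their sign. Under this covariate the median log2 fold change was 0.34 in place of 0.96 for the 19 higher microRNAs and -0.84 in place of -1.57 for the 25 lower ones. The share of each difference that goes with this control cannot be told apart from treatment.

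**Figure D5:**
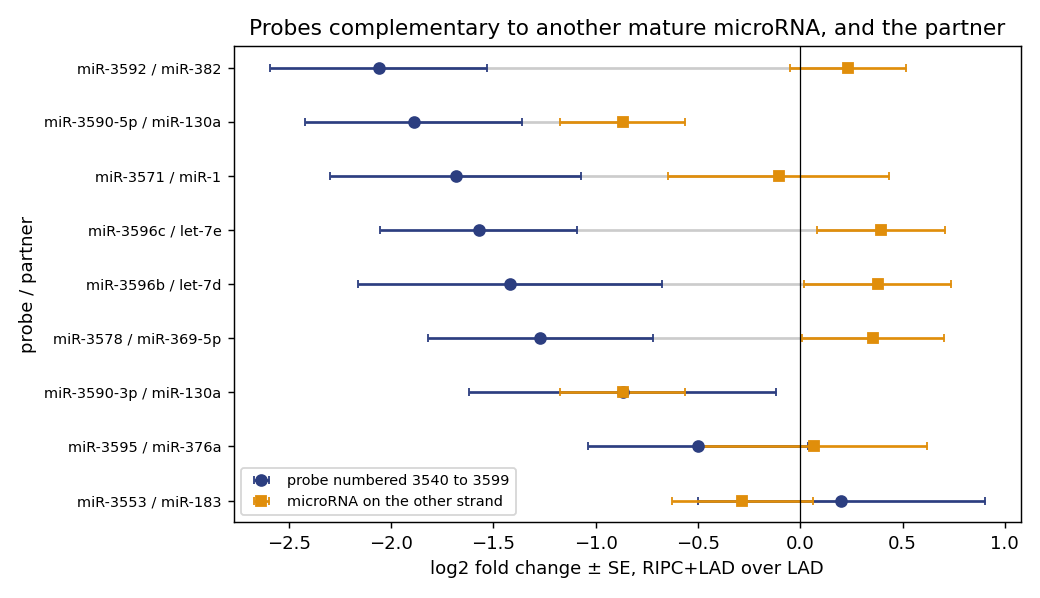
Log2 fold change of RIPC+LAD over LAD with its SE for the 9 tested probes numbered miR-3541 to miR-3597 (blue circles) that are reverse complementary to another tested microRNA, and for that partner (orange squares). In 6 of the 9 pairs the probe lies left of its partner by more than both errors together.

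The other 167 probes were not tested. Their highest count was 8 and 11 in the RIPC+LAD punches and 10, 8 and 6 in LAD 1, LAD 2 and LAD 3. Without the filter, edgeR's quasi-likelihood test gave 0 of 420 probes an adjusted p under 0.05 and 60 an unadjusted p under 0.05. The 167 untested probes included miR-24 and 8 of the 13 probes of the miR-17-92 cluster and its paralogs. They also included 19 of 28 probes for microRNAs of liver, pancreas, testis and embryonic cells. On simulated counts with the spread of these data, 21 of 100 microRNAs altered by 1 on the log2 scale were called, and 79 of 100 altered by 2.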

How the data were processed

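RNA of 10 dorsal vagal complex punches was hybridized to the nCounter rat microRNA panel, which counts probes one by one without sequencing. The counts of 420 microRNA probes were used as deposited by the authors, not normalized, with control probes beside them. A log2 table deposited by the authors holds 146 microRNAs as log2 of the count per 100000 microRNA counts, and served as an alternative. A microRNA was tested if it exceeded the mean plus 2 SD of the 8 negative controls in at least 2 samples (253 of 420).

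Groups came from the labels. EdgeR 4.0.16 (R 4.3.3) fitted 4 group means to all 10 samples with TMM scaling and the quasi-likelihood F test for RIPC+LAD minus LAD, with Benjamini-Hochberg adjustment over 253. SE is the fold change over the root of F. Each sample is 1 animal. Alternatives used DESeq2 1.42.0, limma 3.58.1, other scalings, filters, covariates and samples. MicroRNAs were named by the 12 smallest p per direction, the 3 of the study, the most abundant and up to 4 per list, with others added after their values were seen. Members and lists were chosen with earlier results of these data known, and the list of miR-3541 to miR-3597 was added after the files were seen. The fit was tested on simulated data. The lowest deposited count was 1.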

Additional observations from a re-analysis of the deposited data

Results flagged for a closer look

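The ligation control, a synthetic RNA outside the microRNA measurement, stood apart in the RIPC+LAD rats as a share of POS_A. Its mean was 142% of POS_A in RIPC+LAD (111 and 172%) and 38.2% in LAD (35.9, 54.4 and 24.3%). In the rats with preconditioning alone it was 79.2 and 38.4%, and in AMC 38.9 to 85.6%. The count of the control itself was 7482 and 12507 in RIPC+LAD and 4755, 4647 and 1711 in LAD. In AMC that count was 4894 to 10037, a range that held RIPC+LAD 1. POS_A, the divisor, was 6725 and 7264 in RIPC+LAD and 11724 to 13749 in AMC.

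The 4 messenger RNA probes on the panel also carried a signal that the comparison did not use. They amounted to 9.14 and 8.04% of the microRNA total in RIPC+LAD and to 4.73 to 22.2% in LAD, highest in LAD 3, where AMC had 8.40 to 12.5%. LAD 3 was the punch with the fewest microRNA counts.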

How the results depend on the processing

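No microRNA had an adjusted p under 0.05 in 18 of the 19 alternatives, DESeq2 and limma included. With the animal-number prefix as a random block in limma, 1 did, miR-489. The 44 microRNAs at an unadjusted p under 0.05 (19 higher, 25 lower) became 28 (14 and 14) among the 145 above threshold in all 5 samples, 29 (12 and 17) among the microRNAs of the authors' table, 25 (10 and 15) with limma on the authors' log2 table and 15 (1 and 14) with the ligation control as a covariate. Leaving out 1 punch gave 18 to 48, the lowest without RIPC+LAD 2 (4 and 14). Scaling to the 100 most abundant microRNAs gave 43 (10 and 33), with the median of all microRNAs shifted by -0.175, and scaling without TMM gave 45 (13 and 32), shifted by -0.131. The split was 15 and 31 without LAD 1.

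Among the microRNAs whose fold change was followed under every alternative, the sign turned under the ligation covariate for miR-125b-5p (-0.14), miR-127 (-0.081), miR-154 (-0.29), miR-30a (-0.20), miR-29c (-0.27), miR-181c (-0.46), miR-674-3p (-0.40), miR-3571 (0.20) and miR-411 (0.14). Members of the lists that were not followed singly turned too, since 0 of 3 in the miR-29 list, 1 of 3 in the miR-181 list, 1 of 2 in the miR-200 list and 1 of 5 in the Rtl1 list were above 0 under it, in place of 2, 3, 2 and 4. In the punches with low POS_A alone, which leave out LAD 1, miR-34b was at 0.23 and miR-34c at 0.28. Leaving out 1 punch gave -1.94 to 0.23 for miR-34b and -1.42 to 0.28 for miR-34c. The cause was not tested.

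No paired analysis was possible because the animal numbers name single animals and no number is shared between the groups. With 2 animals against 3, changes of 1 on the log2 scale were mostly missed in simulation, and microRNAs near the negative controls have no measured fold.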
